A study of Mus musculus with 4 samples.

Results

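The replication-type histone genes were taken as the rows whose symbol begins with Hist1h, Hist2h, Hist3h or Hist4h, which gave 70 of the 52459 genes listed. By class, 6 were of linker histone H1, 20 of H2A, 19 of H2B, 12 of H3 and 13 of H4. Among them 3 are annotated as pseudogenes, Hist1h2aj and Hist1h2al of H2A and Hist3h2bb-ps of H2B. Expression was measured by RNA sequencing of the whole first pharyngeal arch, the paired outgrowth of the embryonic head that gives rise to the jaws. Mouse embryos were taken at E9.5 to E9.75 (embryonic days), with 25 to 27 somites, and 2 wild-type libraries were compared with 2 libraries from Wnt1-Cre;pMes-Bmp4 embryos. In that genotype Cre recombinase, made under the Wnt1 promoter, switches on a Bmp4 transgene in neural crest cells and their descendants. Neither allele was sequenced without the other, so an effect of Wnt1-Cre or pMes-Bmp4 by itself cannot be told apart from that of Bmp4. The libraries were numbered 1 and 2 within each genotype, and nothing in the labels ties them to separate embryos or litters, so p-values describe the spread between those libraries, part of which may be technical. Because whole arches were sequenced, fewer cells of a type and less RNA per cell cannot be told apart.

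Replication-type histones package newly copied DNA: H2A, H2B, H3 and H4 form the nucleosome core, and H1 binds the DNA between cores. Their genes lie in clusters, carry no or few introns, and are transcribed mostly in S phase. Most of their messenger RNAs end not in a poly(A) tail but just after a short conserved stem-loop, which is bound by the stem-loop binding protein SLBP, although many of these genes can also give polyadenylated transcripts with longer 3′ ends. The libraries were made from poly(A)-selected RNA, so the values below describe the histone transcripts that passed this selection, and the total histone mRNA was not measured.

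The stem-loop was searched in the annotated transcripts of each gene in GENCODE M21 on GRCm38, from the longest on until a match was found. It was sought as 16 letters on the transcribed strand: GG, any 2 bases, CTTTT, any 1 base, AG, any 2 bases and CC. It was found in 44 of the 70 histone genes, or 62.9%, against 85 of 48082 annotated genes, or 0.177%. The sites below are those of genes whose values the results turn on and of the H4 gene Hist1h4j for its rarer form, with the stem-loop in capitals and up to 7 flanking bases on each side, written 5′ to 3′ as DNA.
Hist1h4n: aactaaaGGCCCTTTTCAGGGCCatccaat
Hist1h4d: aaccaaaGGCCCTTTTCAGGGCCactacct
Hist1h4j: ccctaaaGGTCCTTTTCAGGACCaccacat
Hist1h2bm: acacaaaGGCTCTTTTCAGAGCCactaagc
Hist1h2bk: caccaaaGGCTCTTTTAAGAGCCactaaac
Hist1h1d: ctcaaacGGCTCTTTTCAGAGCCacccaca
Hist1h1c: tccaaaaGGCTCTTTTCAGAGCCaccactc
Hist1h2ao: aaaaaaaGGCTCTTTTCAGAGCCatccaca
Hist1h2ap: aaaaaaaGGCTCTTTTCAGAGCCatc
Hist1h2ae: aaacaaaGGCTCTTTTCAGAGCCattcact
Hist1h2ag: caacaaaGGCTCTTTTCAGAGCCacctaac
The form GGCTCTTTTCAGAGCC was the most frequent, in 26 genes: 10 of H2A, 8 of H2B, 5 of H3 and 3 of H1. H4 genes carried other forms, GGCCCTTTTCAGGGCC in 7, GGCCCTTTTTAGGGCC in 2 and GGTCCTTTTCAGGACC in 2. The form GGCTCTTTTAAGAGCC, with A at the variable base of the loop, was in 6 genes of H1, H2B and H3. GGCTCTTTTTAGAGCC was in Hist2h2ac alone.

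The libraries held between 29607541 and 47849092 reads assigned to genes. Values are normalized read counts, that is reads divided by a size factor of each library. Bmp4, the ligand carried by the transgene, had 682 and 437 normalized reads in the wild-type libraries against 2656 and 1745 in the transgenic ones, in the direction of the labels. The 2 transgenic libraries stood apart from each other for histone genes: the median absolute log2 difference between transgenic libraries was 0.70 over the histone genes tested and 0.29 over all genes tested, against 0.28 and 0.21 between wild-type libraries.

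Of the 70 histone genes, 58 averaged at least 10 normalized reads and entered the test, limma on log2(value + 1) fitted over all 16746 genes that passed the same minimum. At an adjusted p under 0.05, 6 histone genes fell in Wnt1-Cre;pMes-Bmp4 and 0 rose, where 5.28% of all genes tested fell and 2.97% rose. The 6 were Hist1h1b, Hist1h1c, Hist1h1d, Hist1h2bm, Hist1h4d and Hist1h4n. At an unadjusted p under 0.05 the limma fit had 23 histone genes lower and 0 higher, where 15.3% of all genes tested were lower and 13.4% higher at that level. On the recovered reads edgeR called 3 histone genes lower, Hist1h1c, Hist1h1d and Hist1h4n, and 0 higher, where it called 5.46% of all genes tested lower and 2.44% higher. DESeq2 called 12 lower and 0 higher, against 9.45% and 7.67% of all genes tested.

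The median log2 fold change of the histone genes tested was -0.71, and that of all genes tested was 0.02. The estimate was negative for 51 of the 58 and positive for 7. In 36 histone genes both transgenic libraries lay below both wild-type libraries, an arrangement found in 29.7% of all genes tested. In 2 both lay above, against 30% of all genes tested, and in 20 the groups overlapped. The 6 calls needed both wild-type libraries: without either of them 0 histone genes, and 0 of all genes tested, were called lower by limma, with 11 histone genes lower at an unadjusted p under 0.05 without library 1, against 10.7% of all genes tested, and 13 without library 2, against 6.33%. Without transgenic library 1, 25 histone genes were called lower and 5 higher, against 16.2% and 16% of all genes tested. Without transgenic library 2, 13 were called lower and 2 higher, against 11.4% and 7.17%. The lone library of a group was then assumed to vary like the other group.

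The classes differed in their medians. The 16 H2A genes tested had a median log2 fold change of -0.10, with 10 negative and 6 positive, and none of them passed the limma threshold. At an unadjusted p under 0.05, 3 were lower and 0 higher, against 15.3% and 13.4% of all genes tested. In this class edgeR called 0 and DESeq2 called 2 lower, against 9.45% of all genes tested for DESeq2. In the other classes 41 of 42 genes tested had a negative estimate, and the class medians were -1.08 for H1, -0.90 for H4, -0.86 for H3 and -0.56 for H2B. Without the second transgenic library these medians were -0.66, -0.71, -0.62 and -0.36, and that of H2A was -0.42. Both transgenic libraries lay below both wild-type libraries in 5 of 5 H1 genes, 9 of 12 H4, 5 of 10 H3, 10 of 15 H2B and 7 of 16 H2A genes. Of all genes tested 29.7% had this order. The difference between classes was not tested, since the genes of a class are not independent replicates.

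**Figure D1:**
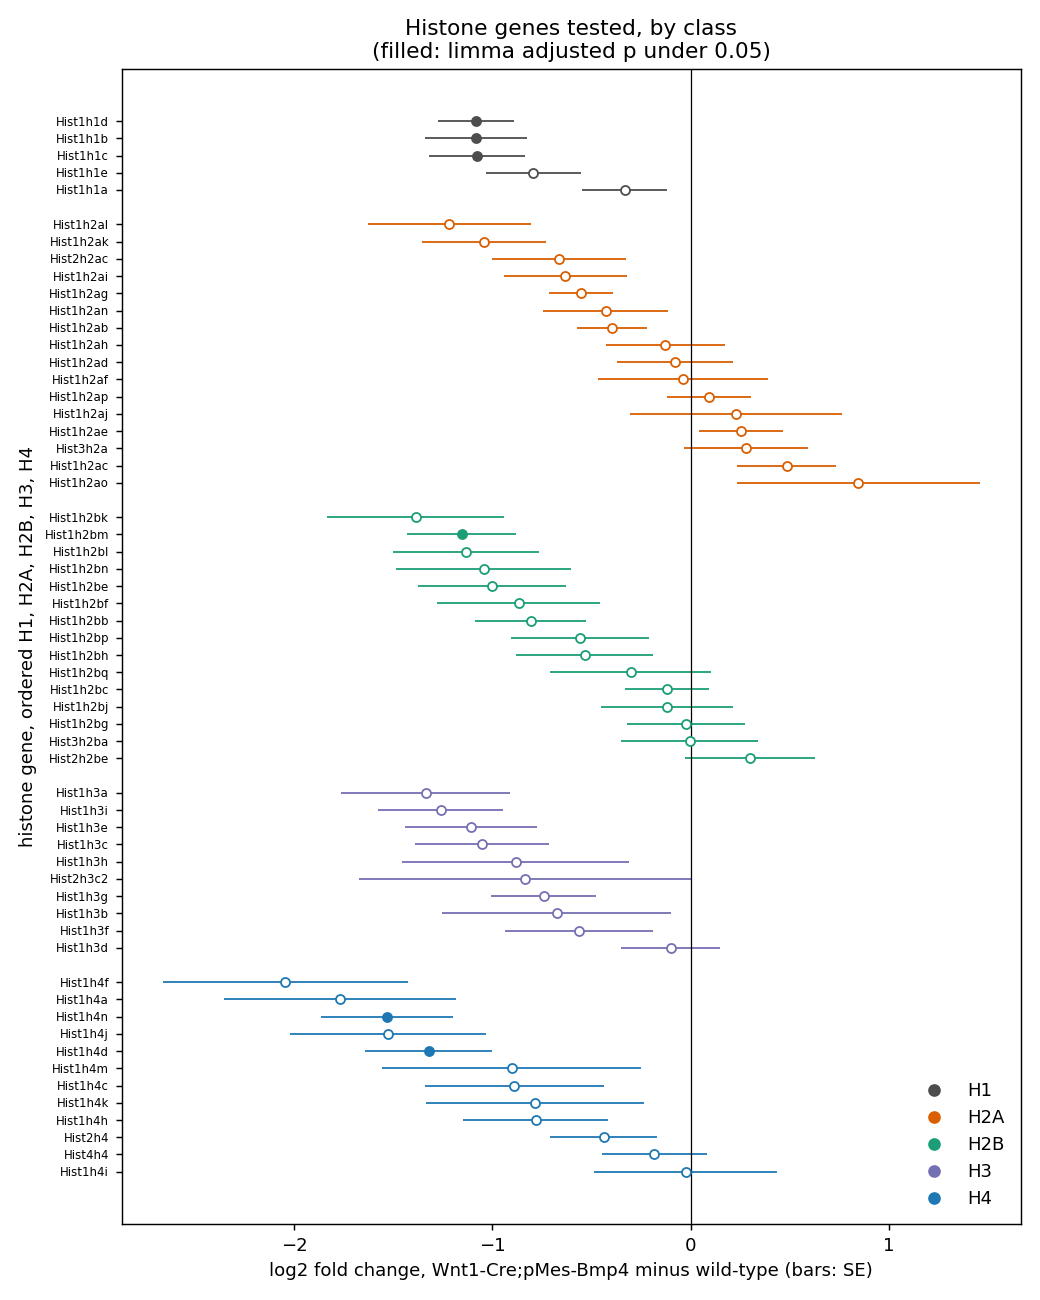
Log2 fold change, Wnt1-Cre;pMes-Bmp4 minus wild-type, of the 58 histone genes tested, grouped by class and ordered within it, with bars for the standard error from limma. Filled points are the 6 genes with an adjusted p under 0.05, all on the left of 0. H1, H3 and H4 genes all lie left of 0 and H2A genes lie on both sides.

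Summed over all 70 genes, histone reads came to 61709 and 55497 normalized reads in wild-type and to 45029 and 78858 in Wnt1-Cre;pMes-Bmp4. The groups overlapped, with the second transgenic library highest and the first lowest. That total joined opposite movements in the second transgenic library. H2A sums were 37035 and 32516 in wild-type, 28940 in transgenic library 1 and 69725 in transgenic library 2. The sums of all other classes were 24674 and 22981 in wild-type, 16089 in transgenic library 1 and 9133 in transgenic library 2. H2A reads thus outnumbered those of the other classes 1.50-fold and 1.41-fold in wild-type, 1.80-fold in the first transgenic library and 7.63-fold in the second.

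H1 sums were 6467 and 6883 in wild-type against 4380 and 2847. H4 sums were 12451 and 10228 against 6912 and 3340. H3 sums were 3150 and 3020 against 2070 and 1297. In these 3 classes both transgenic libraries lay below both wild-type libraries, and the second lay lower than the first. The means of the transgenic group were 0.541, 0.452 and 0.546 times the wild-type means for H1, H4 and H3. H2B sums, 2607 and 2851 against 2727 and 1649, overlapped between the groups.

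**Figure D2:**
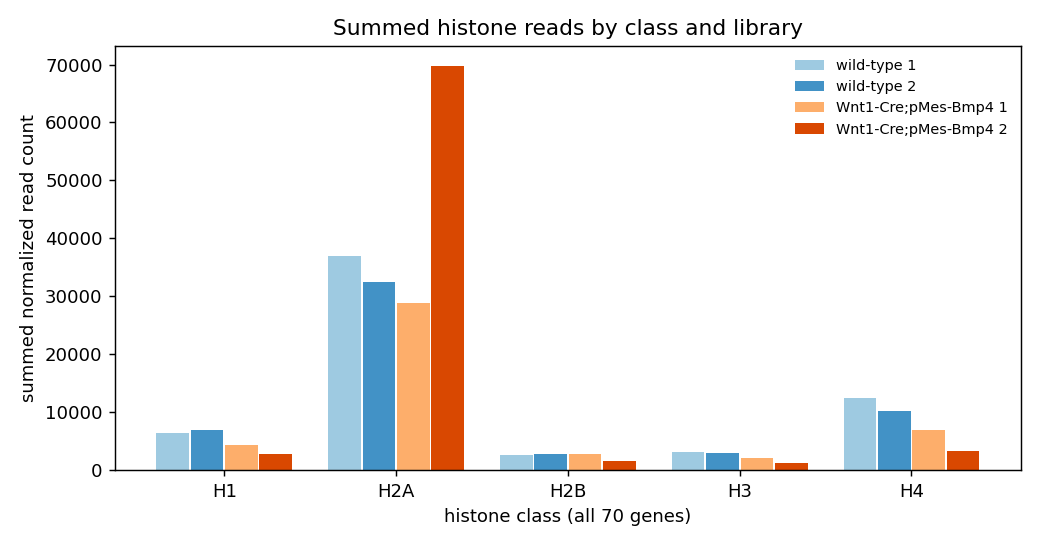
Summed normalized read counts of all 70 histone genes by class, 1 bar for each library. H2A in the second transgenic library reaches 69725, above the 28940 to 37035 of the other libraries, while H1, H3 and H4 are lowest in that library.

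The linker histone genes held 3 of the 6 calls. Hist1h1d (H1.3, chr13:23553262-23560686) had 637 and 756 normalized reads in the wild-type libraries and 296 and 360 in the transgenic ones. The groups did not overlap, and the transgenic libraries differed by 0.28 on the log2 scale, close to the 0.25 between wild-type libraries. It fell 2.12-fold by the group means, a log2 fold change of -1.08 ± 0.19 (SE, n = 2 per group) with a limma adjusted p of 0.0272. Among the 6 calls it was the one in which the second transgenic library was the higher of the pair.

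Hist1h1c (H1.2, chr13:23738808-23740367) had 918 and 1137 normalized reads in the wild-type libraries and 607 and 386 in the transgenic ones. Hist1h1b (H1.5, chr13:21779883-21780625) had 2139 and 2077 against 1334 and 742. In both genes each transgenic library was below each wild-type library, with the second lowest. The log2 fold changes were -1.08 ± 0.24 for Hist1h1c, with a limma adjusted p of 0.0427, and -1.08 ± 0.26 for Hist1h1b, with a limma adjusted p of 0.0484. Without the second transgenic library they were -0.75 and -0.66. Hist1h1b did not pass with edgeR, at an adjusted p of 0.0517, or with robust limma, at 0.0550.

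Hist1h1e (H1.4), the H1 gene with the most reads, had 2512 and 2676 normalized reads in the wild-type libraries and 1951 and 1145 in the transgenic ones. These values did not overlap, but the log2 fold change of -0.79 ± 0.24 had a limma adjusted p of 0.0819 and did not pass, and the estimate was -0.41 without the second transgenic library. Its annotated exon shares 496 bases with Hist1h2be on the same strand, and reads there cannot be told apart. Hist1h1a (H1.1), with 260 and 236 against 183 and 210, had a log2 fold change of -0.33 and a limma adjusted p of 0.348. The testis-type Hist1h1t, which was not tested, had 0.742 and 2.06 normalized reads in wild-type and 8.53 and 4.85 in the transgenic libraries, 8 reads at most in a transgenic library.

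Of the genes for H4, a core histone, Hist1h4d (chr13:23581598-23582735) carried most of the reads, with 92.1% and 88.4% of the H4 sum in the wild-type libraries and 85.9% and 83.9% in the transgenic ones. It had 11470 and 9040 normalized reads in the wild-type libraries and 5934 and 2802 in the transgenic ones. The groups did not overlap, and the second transgenic library lay 2.12-fold under the first. It fell 2.35-fold by the group means, with a log2 fold change of -1.32 ± 0.32 and a limma adjusted p of 0.0499. This call lay at the threshold, with a limma adjusted p of 0.0504 at a pseudocount of 0.5, 0.168 with robust limma, 0.0580 with edgeR and 0.0814 with DESeq2. Without the second transgenic library the log2 fold change was -0.78.

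Hist1h4n (chr13:21831767-21832196) had 154 and 176 normalized reads in the wild-type libraries and 72.5 and 43.6 in the transgenic ones. Both transgenic libraries lay below both wild-type libraries. It fell with a log2 fold change of -1.53 ± 0.33 and a limma adjusted p of 0.0397, the lowest log2 value among the 6 calls. Of its 50-base stretches 83.2% occur also in Hist1h4m, and how reads that match several copies were counted is not given in the sources used here. Hist1h4m itself, just inside the minimum, had 13.4 and 39.1 against 12.8 and 10.9.

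The other H4 genes ranged from a log2 fold change of -2.04 in Hist1h4f to -0.03 in Hist1h4i, and none of them passed. Hist1h4f had 51.9 and 47.3 normalized reads in the wild-type libraries and 20.3 and 6.06 in the transgenic ones, the last resting on 5 reads, with a limma adjusted p of 0.0823. The groups did not overlap, and the transgenic libraries lay 3.34-fold apart. Hist1h4j, with the stem-loop form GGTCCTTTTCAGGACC, had 56.4 and 49.4 against 25.6 and 12.1, in the same order, with a limma adjusted p of 0.0968. Hist1h4i had 221 and 404 against 470 and 183, so its groups overlapped with 2.57-fold between the transgenic libraries. Hist4h4, the only member on chromosome 6 (chr6:136801553-136804415), had 142 and 149 against 148 and 110, with a log2 fold change of -0.18 and a limma adjusted p of 0.682.

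Without Hist1h4d the H4 sums were 981 and 1188 normalized reads in the wild-type libraries and 978 and 538 in the transgenic ones. Both transgenic sums were still below both wild-type sums, though the first lay within 4 reads of the nearest wild-type one. The sum of the other H4 genes thus differed little in the first transgenic library, though the single genes did. In that library 10 of the 12 H4 genes tested lay below the wild-type mean, with a median log2 difference of -0.71. Hist1h4i, with 470 normalized reads there against 221 and 404 in wild-type, raised that sum.

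**Figure D3:**
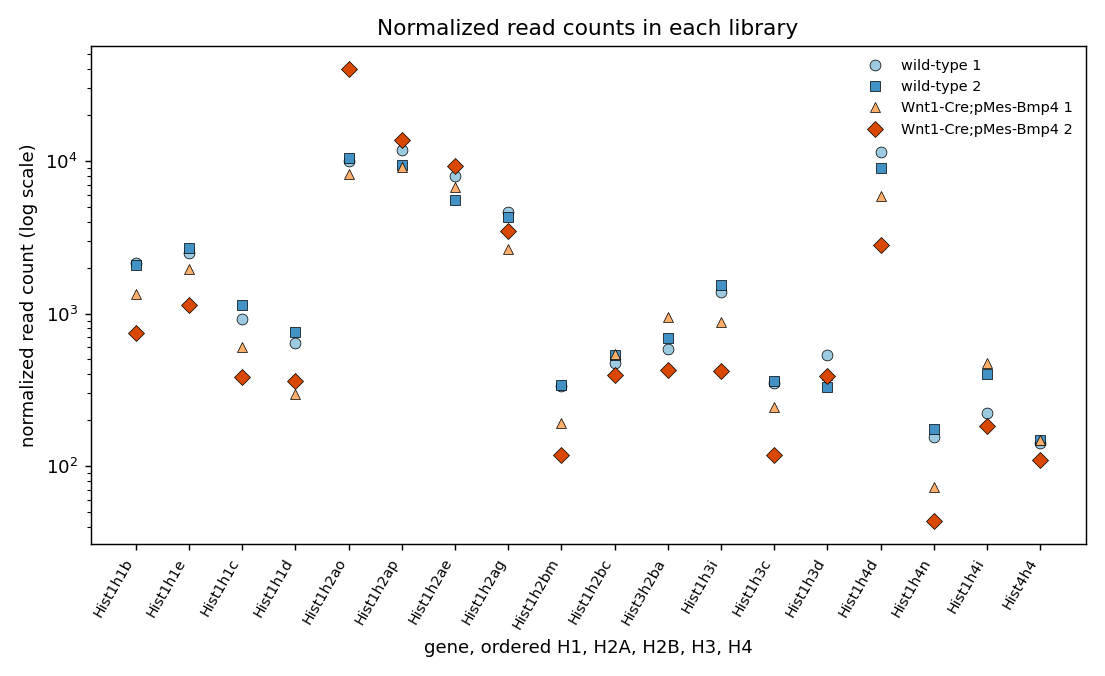
Normalized read counts, on a log scale, of 18 histone genes in the 4 libraries, ordered by class. In Hist1h1b, Hist1h1c, Hist1h2bm, Hist1h3i, Hist1h4d and Hist1h4n both transgenic libraries lie below both wild-type ones, and Hist1h2ao reaches 40400 in the second transgenic library alone.

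None of the 10 H3 genes tested passed in limma, and all had a negative estimate, from -1.34 to -0.10. At an unadjusted p under 0.05, 5 were lower, against 15.3% of all genes tested. None was called by edgeR, and 4 were called lower by DESeq2, against 9.45% of all genes tested. Hist1h3i (chr13:21782960-21783370), the H3 gene with the most reads, had 1379 and 1544 normalized reads in the wild-type libraries and 881 and 420 in the transgenic ones. The groups did not overlap, and the log2 fold change of -1.26 ± 0.32 had a limma adjusted p of 0.0539. The same order held for Hist1h3c, with 348 and 362 against 245 and 119, a log2 fold change of -1.05 ± 0.34 and a limma adjusted p of 0.0951. Without the second transgenic library the estimates were -0.73 for Hist1h3i and -0.53 for Hist1h3c.

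Hist1h3a had 60.8 and 119 normalized reads in the wild-type libraries and 36.3 and 30.3 in the transgenic ones. Its wild-type libraries differed more than its transgenic ones, and the log2 fold change of -1.34 ± 0.43 had a limma adjusted p of 0.0926. Hist1h3d, second to Hist1h3i in H3 reads, overlapped between the groups with 536 and 331 against 395 and 390, and its limma adjusted p was 0.819. The group order of Hist1h3i was thus not shared by Hist1h3d.

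In H2B, 14 of 15 genes tested had a negative estimate and 1 fell, where 5.28% of all genes tested fell. At an unadjusted limma p under 0.05, 6 were lower and 0 higher, against 15.3% and 13.4% of all genes tested. In this class edgeR called 0 and DESeq2 called 1 lower, against 9.45% of all genes tested for DESeq2. Hist1h2bm (chr13:21722044-21722567) had 332 and 337 normalized reads in the wild-type libraries and 191 and 118 in the transgenic ones. The wild-type libraries lay close together and both transgenic ones lay below them. It fell 2.17-fold by the group means, a log2 fold change of -1.15 ± 0.27 with a limma adjusted p of 0.0479. It did not pass with quantile scaling, at a limma adjusted p of 0.0526, or with edgeR, at 0.0517.

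Hist1h2bk had the lowest H2B estimate, -1.39 ± 0.44, from 148 and 127 normalized reads in the wild-type libraries and 81.1 and 32.7 in the transgenic ones, with a limma adjusted p of 0.0942. Its groups did not overlap, but the transgenic libraries lay 2.48-fold apart, and the estimate was -0.75 without the second. The H2B genes with the most reads differed from this. Hist3h2ba (chr11:58948920-58949533) had 589 and 692 normalized reads in the wild-type libraries and 948 and 427 in the transgenic ones, with the highest and the lowest value both in the transgenic genotype. Hist1h2bc, with 472 and 535 against 544 and 393, also overlapped, as did Hist2h2be, with 90.5 and 59.7 against 92.8 and 88.5, the one H2B gene with a positive estimate, 0.30.

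H2A reads came mostly from 4 genes, Hist1h2ao, Hist1h2ap, Hist1h2ae and Hist1h2ag, which held from 91.3% to 96.0% of the H2A sum in each library. Hist1h2ao (chr13:21810465-21810944) had 9934 and 10430 normalized reads in the wild-type libraries and 8279 and 40400 in the transgenic ones. The first transgenic library lay below both wild-type libraries and the second lay 4.88-fold above the first. The log2 fold change was 0.85 ± 0.61 with a limma adjusted p of 0.399, and it was -0.30 without the second transgenic library. Hist1h2ao gave 57.9% of the H2A sum in that library and from 26.8% to 32.1% in the others.

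Hist1h2ap (chr13:21833026-21833507) shares 93.1% of its 50-base stretches with Hist1h2ao, so reads of the 2 genes are hard to separate. It had 11880 and 9394 normalized reads in the wild-type libraries and 9202 and 13794 in the transgenic ones. The transgenic values enclosed the wild-type ones, and the log2 fold change was 0.09 ± 0.21. The second transgenic library exceeded the first 1.50-fold here, less than for Hist1h2ao.

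Hist1h2ae (chr13:23570517-23571220) had 7937 and 5585 normalized reads in the wild-type libraries and 6796 and 9281 in the transgenic ones, overlapping, with a log2 fold change of 0.25 ± 0.21 and a limma adjusted p of 0.465. Hist1h2ag (chr13:22042460-22042944) had 4654 and 4286 against 2655 and 3485. Its groups did not overlap, in the lower direction, and its log2 fold change of -0.55 ± 0.16 had a limma adjusted p of 0.0761. The 4 most abundant H2A genes thus did not share a direction between the genotypes, while all 4 were higher in the second transgenic library than in the first.

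Hist1h2ac and Hist3h2a were the 2 histone genes in which both transgenic libraries lay above both wild-type libraries. Hist1h2ac had 192 and 157 normalized reads in the wild-type libraries and 209 and 284 in the transgenic ones, a log2 fold change of 0.48 ± 0.25 with a limma adjusted p of 0.251. Hist3h2a had 61.6 and 83.3 against 90.7 and 83.7, with neighbouring values nearly equal across the groups, and its annotated exons share 708 bases with Trim17 on the same strand. At the other end of the class, Hist1h2ak had 148 and 188 against 65.1 and 99.4, and Hist1h2al, which lies apart from the clusters at chr13:51202727-51203065, had 93.5 and 127 against 65.1 and 32.7. Neither passed: the limma adjusted p was 0.0817 for Hist1h2ak and 0.106 for Hist1h2al.

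The difference in H2A between the transgenic libraries was not limited to Hist1h2ao. Of the 16 H2A genes tested, 12 were higher in transgenic library 2 than in library 1, with a median log2 difference of 0.45. Most of these genes are near-copies whose reads are hard to separate. Where at least 50% of the 50-base stretches occur in another histone gene, 10 of 12 were higher in library 2, with a median of 0.59. Of the 4 others, 2 were higher and 2 lower, with a median of 0.16. The pseudogene Hist1h2aj had 205 and 172 normalized reads in wild-type and 115 and 418 in the transgenic libraries, and Hist1h2af had 173 and 219 against 117 and 306. In both, the second transgenic library was the highest of all and the first the lowest. Without Hist1h2ao the H2A sums were 27101 and 22086 in the wild-type libraries and 20661 and 29325 in the transgenic ones. Without all 4 most abundant genes they were 2631 and 2821 against 2008 and 2764, so the second transgenic library then lay within the wild-type range.

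In the remaining classes the same libraries differed the other way. The second transgenic library was the lower in 36 of the 42 genes tested outside H2A, with medians of -0.65 for H1, -0.65 for H2B, -0.68 for H3 and -0.87 for H4. The medians of wild-type 2 minus wild-type 1 lay between -0.20 and 0.16 over the 5 classes. Each transgenic library by itself was below the wild-type mean in the classes other than H2A, by a median of -0.52 for library 1 and -1.14 for library 2. For H2A those medians were -0.42 and 0.14. In H2A, 13 of 16 genes were below the wild-type mean in the first transgenic library and 7 of 16 in the second, and outside H2A 34 and 40 of 42.

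**Figure D4:**
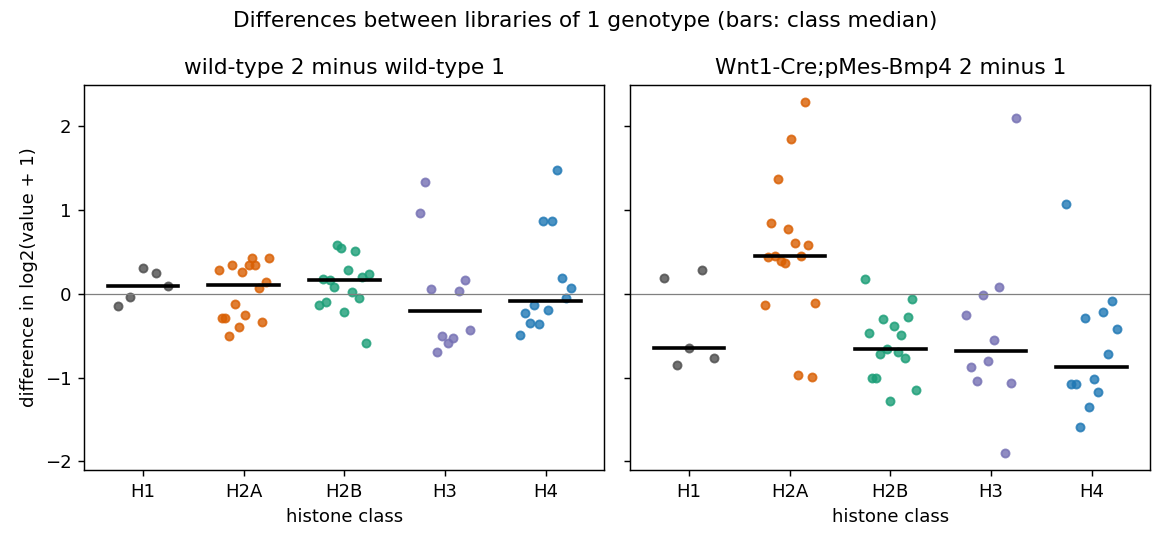
Log2 differences between the 2 libraries of each genotype, 1 point for each of the 58 histone genes tested, with bars at the class medians. Between wild-type libraries the medians lie between -0.20 and 0.16. Between transgenic libraries H2A has a median of 0.45 and the other classes lie between -0.87 and -0.65.

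H2A and H2B genes often lie head to head, transcribed away from a shared promoter region. There were 14 such pairs, with 173 to 306 bases between the starts, and in 11 both genes were tested. The H2A estimate exceeded the H2B estimate in 9 of the 11, by a median of 0.50 on the log2 scale. In the pair of Hist1h2aj and Hist1h2bm the log2 fold changes were 0.23 and -1.15. In the pair of Hist1h2ah and Hist1h2bk they were -0.13 and -1.39, and in that of Hist1h2ao and Hist1h2bq 0.85 and -0.30.

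Between the transgenic libraries the pairs split in nearly the same way every time. In 10 of the 11 pairs the second library was the higher for the H2A gene and the lower for the H2B gene. The exception was Hist2h2ac with Hist2h2be, in which both were lower, by -0.99 and -0.07. Between these libraries the 2 genes of the 10 pairs thus differed in direction, with starts at most 306 bases apart. Their class medians, 0.45 for H2A and -0.65 for H2B, differed in the same way. Between the genotypes the signs within a pair did not always differ, as in Hist1h2ah with Hist1h2bk at -0.13 and -1.39.

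**Figure D5:**
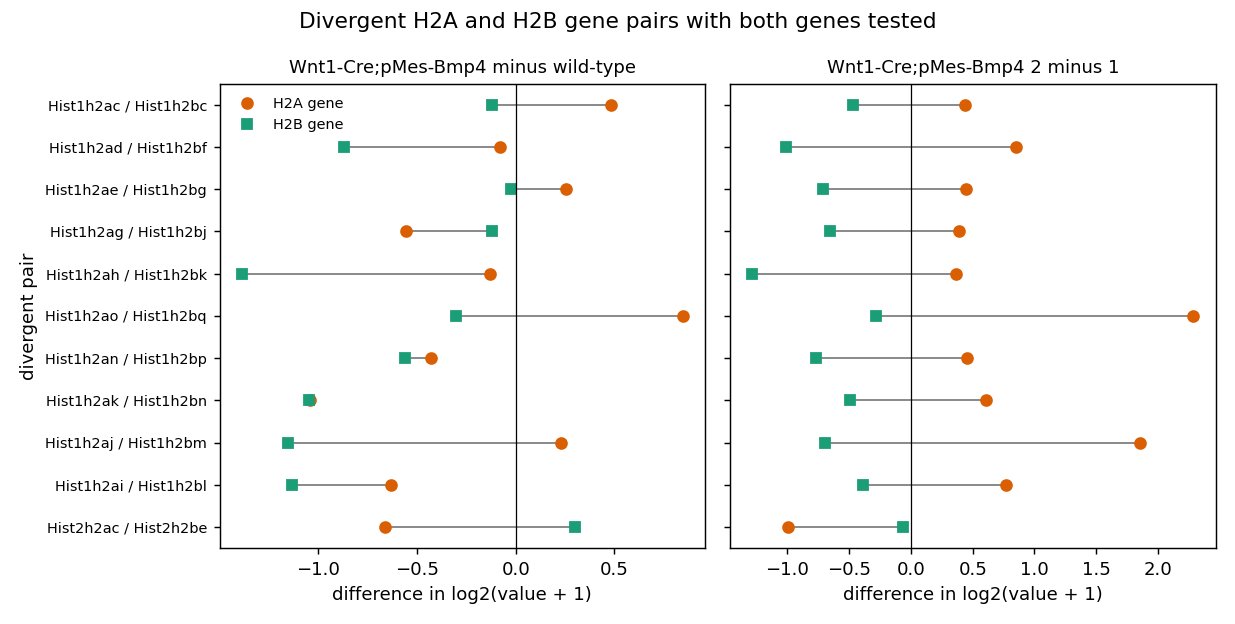
Log2 differences for the 11 divergent pairs with both genes tested, H2A as circles and H2B as squares joined by a line. On the left, Wnt1-Cre;pMes-Bmp4 minus wild-type, H2A lies to the right of H2B in 9 pairs. On the right, transgenic library 2 minus 1, H2A is above 0 and H2B below 0 in 10 pairs.

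Promoters were taken from RefSeq on GRCm38.p6, from 250 bases before to 50 bases after each gene's start, and 61 of the 70 genes had one. They were searched on both strands for 3 motifs, the octamer ATTTGCAT known from H2B promoters, the CCAAT box and the TATA-type letters TATAAA. The octamer was in 7 of 18 H2A promoters and 6 of 16 H2B promoters, and in 0 of 5 H1, 0 of 10 H3 and 0 of 12 H4 promoters, against 1.74% of all 32851 promoters. Windows of a divergent pair overlap, so an octamer between the genes is counted for both. CCAAT was in every H1, H2A, H2B and H3 promoter matched, in 3 of 12 H4 promoters, and in 37.4% of all promoters. TATAAA was in 3 of 5 H1, 11 of 18 H2A, 8 of 16 H2B, 4 of 10 H3 and 8 of 12 H4 promoters, and in 13.6% of all.

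Upstream stretches of 150 bases are shown for the H2A gene that was highest in the second transgenic library and for an H2B and an H4 gene that fell. Capitals mark the 3 motifs, with ATTGG where CCAAT is on the other strand. They are Hist1h2ao at chr13:21810217-21810366 on the plus strand, Hist1h2bm at chr13:21721894-21722043 on the plus strand and Hist1h4n at chr13:21832198-21832347 on the minus strand, each written 5′ to 3′ toward its gene.
Hist1h2ao: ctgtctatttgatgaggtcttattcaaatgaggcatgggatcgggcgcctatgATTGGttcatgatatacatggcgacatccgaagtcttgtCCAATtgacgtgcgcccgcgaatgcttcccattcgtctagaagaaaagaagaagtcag
Hist1h2bm: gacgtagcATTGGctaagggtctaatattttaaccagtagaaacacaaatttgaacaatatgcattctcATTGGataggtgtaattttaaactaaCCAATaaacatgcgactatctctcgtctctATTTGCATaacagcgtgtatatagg
Hist1h4n: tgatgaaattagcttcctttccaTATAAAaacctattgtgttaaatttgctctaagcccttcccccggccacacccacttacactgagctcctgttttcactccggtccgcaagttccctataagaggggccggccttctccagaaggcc
The Hist1h2bm stretch holds 1 octamer and 3 CCAAT boxes, the Hist1h2ao stretch 2 CCAAT boxes and the Hist1h4n stretch 1 TATAAA. A match in these windows is a matter of letters, and binding was not measured.

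By position, 56 genes belonged to Hist1 on chromosome 13, mostly in 2 stretches, 24 genes at chr13:21715763-22043676 and 31 at chr13:23531050-23934851. Hist2 lies at chr3:96219865-96270132 with 10 genes, Hist3 at chr11:58948920-58956830 with 3, and Hist4 is the single gene Hist4h4. All 6 genes that fell were in Hist1, 3 in each stretch. The median log2 fold change was -0.78 in each of the 2 stretches. Within both, H2A genes had medians nearer 0, -0.28 and -0.04, than the other classes, -1.04 and -0.84.

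Outside Hist1 few genes could be tested. Hist2 had 4 tested, with a median of -0.55, Hist3 had 2, with a median of 0.14 that ranged from -0.18 to 0.45 without 1 library, and Hist4 had 1. None of these 7 passed the threshold in limma, edgeR or DESeq2, and 0 had an unadjusted limma p under 0.05.

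Outside H2A the position of the stem-loop within the annotated transcript gave no plain division of the values. The distance of 100 bases used here was chosen after values were seen. Outside H2A, 13 genes had the stem-loop within 100 bases of the annotated end, with a median log2 fold change of -0.90, and 2 of them fell, Hist1h4n and Hist1h2bm. In 17 it lay farther from the end, with a median of -0.79, and 3 of them fell, Hist1h1c, Hist1h1d and Hist1h4d. In 12 no match was in the annotated transcript, with a median of -0.83, and Hist1h1b fell. Over all genes tested 5.28% fell. All 6 histone genes that fell were among the 20 genes outside H2A averaging at least 100 normalized reads, with 0 among the 22 below that level. In H2A the medians were -0.24 in 6 genes with the stem-loop within 100 bases, 0.28 in 3 with it farther and -0.43 in 7 without a match. The 3 were Hist1h2ac, Hist1h2ae and Hist3h2a, and this difference was not tested. The distance ranged up to 4884 bases in Hist1h1d, whose annotated transcript runs on past the stem-loop, and was 770 bases in Hist1h4d.

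Sequence shared between members limits single-gene values. In 27 of the 58 genes tested at least 50% of the 50-base stretches occur in another histone gene. Outside H2A the 15 such genes had a median of -0.88 and the 27 others -0.79, and 5 of the 6 genes that fell were among the others. Hist1h1b shared none, Hist1h1d 2.21%, Hist1h1c 8.54%, Hist1h4d 10.2% and Hist1h2bm 36.2%, while Hist1h4n shared 85.6%. In H2A the 12 genes with at least 50% shared had a median of -0.26 and the 4 others 0.27.

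All 20 H2A genes contain an annotated gene on the opposite strand, sharing 109 to 586 exon bases, against 3 genes outside H2A. In 15 H2A genes this is a predicted gene listed at 0 in all libraries. The strand setting of the counting is not given in the sources used here, and its part in the H2A values was not tested.

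Levels between genes were compared per kilobase of the longest annotated transcript, as group means. Hist1h2ap, at 22068 normalized reads per kilobase, and Hist1h2ao, at 21212, were the highest in wild-type, followed by Hist1h2ae at 9603, Hist1h2ag at 9216 and Hist1h4d at 9011. In Wnt1-Cre;pMes-Bmp4 the mean was 50708 for Hist1h2ao and 3838 for Hist1h4d. The first of these means rests on the second transgenic library, at 84167, since in the first Hist1h2ao had 17249, below the 19091 of Hist1h2ap. Hist1h3i went with 3556 in wild-type and 1582 in Wnt1-Cre;pMes-Bmp4, and Hist1h1b with 2837 and 1397. Hist1h2ap and Hist1h2ao did not differ in wild-type beyond the spread of their libraries, nor did Hist1h2ae, Hist1h2ag and Hist1h4d. The annotated transcript runs 770 bases past the stem-loop in Hist1h4d and 23 in Hist1h2ag, so their order holds for annotated lengths only. Hist1h2ap shares 93.1% of its 50-base stretches with Hist1h2ao, which limits their separate levels.

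The minimum mean of 10 left out 12 histone genes. Just inside it, Hist2h3c2 had 17.1 and 12.3 normalized reads in the wild-type libraries and 3.20 and 17.0 in the transgenic ones. Just outside it, Hist1h2br had 7.42 and 7.20 against 6.40 and 4.85, and Hist3h2bb-ps had 2.23 and 7.20 against 0 and 14.5. Another 6, Hist2h2aa1, Hist2h2aa2, Hist2h3c1, Hist2h3b, Hist2h2bb and Hist1h2aa, were listed at 0 in all 4 libraries, 5 of them in Hist2. The remaining 4 were Hist1h1t, Hist2h2ab, Hist1h4b and Hist1h2ba, with means under 5 normalized reads. The 5 genes of Hist2 at 0 overlap other annotated genes, and whether reads there were left out of the counting was not tested.

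Replacement histones are made outside S phase too, many of them from intron-bearing genes with polyadenylated mRNAs. Of 11 tested, 1 fell and 0 rose, with a median of -0.05, where 5.28% of all genes tested fell and 2.97% rose. H2afv, an H2A.Z gene, had 15955 and 16814 normalized reads in the wild-type libraries and 9817 and 7822 in the transgenic ones. It fell 1.86-fold by the group means, with a log2 fold change of -0.90 ± 0.15 and a limma adjusted p of 0.0240. H2afj had 717 and 694 against 632 and 275, with a limma adjusted p of 0.208. The summed level of the 11 genes, 387515 and 372994 against 387620 and 422340, was of the same order in all libraries.

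The histone mRNA processing genes, which cut the transcript after the stem-loop, bind it or degrade it, showed 0 of 22 tested past the limma threshold in either direction, with a median of 0.19. At an unadjusted p under 0.05, 6 were higher and 1 lower, against 13.4% and 15.3% of all genes tested. None was called by edgeR, and 1 was called higher by DESeq2, against 7.67% of all genes tested. Slbp had 13001 and 12349 normalized reads in the wild-type libraries and 14977 and 19511 in the transgenic ones. The groups did not overlap, in the higher direction, with a log2 fold change of 0.43 ± 0.15 and a limma adjusted p of 0.120. Exosc10, an exosome nuclease, had 0.47 with a limma adjusted p of 0.0844.

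Among 24 chaperones and deposition factors, which carry histones to DNA, 2 rose and 2 fell, where 2.97% of all genes tested rose and 5.28% fell. Hira, which deposits the replacement histone H3.3, had 421 and 529 normalized reads in the wild-type libraries and 133 and 120 in the transgenic ones. It fell 3.75-fold, with a log2 fold change of -1.89 ± 0.22 and a limma adjusted p of 0.0194, and Ubn2, of the same complex, fell by 1.11 on the log2 scale. Rbbp7 and Nap1l4 rose, with log2 fold changes of 0.99 and 0.55.

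S phase and replication genes, with which histone transcription is normally coupled, were mostly higher in the transgenic libraries. Of 34 tested, 8 rose and 0 fell, with a median of 0.35, where 2.97% of all genes tested rose and 5.28% fell. In 21 both transgenic libraries lay above both wild-type ones, an arrangement found in 30% of all genes tested. Rrm1, a subunit of ribonucleotide reductase, had 8015 and 6930 normalized reads in the wild-type libraries and 11621 and 13021 in the transgenic ones, a log2 fold change of 0.72 ± 0.14 with a limma adjusted p of 0.0301. Ccne2, a cyclin of S phase entry, rose with 0.96, Gins2 with 0.68, Mcm5 with 0.61 and Mcm6 with 0.60. Of 20 mitosis genes tested, 4 rose, among them Kif20a with 0.94, and Mki67 fell by 0.73 on the log2 scale, against the same shares called of all genes tested. Limma calls in the replacement histone, chaperone, S phase and mitosis lists needed both wild-type libraries. The same held for nearly all calls over all genes tested, so it was not particular to these lists.

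Other RNAs that lack a long poly(A) tail were also compared. Of 10 tested, 2 fell and 0 rose, against 5.28% and 2.97% of all genes tested, and the median was -0.74. Those that fell were the mitochondrial ribosomal RNAs mt-Rnr1 and mt-Rnr2, with log2 fold changes of -1.25 and -1.20. Rpph1, the RNA of ribonuclease P, had 247 and 231 normalized reads in the wild-type libraries and 177 and 99.4 in the transgenic ones, and Rn7sk had 141 and 163 against 113 and 83.7. In 9 of the 10 the second transgenic library was below the first, with a median of -0.45. The part of poly(A) selection in the histone values was not tested.

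Erythroid markers also moved with the genotype, with 5 of 14 lower, 0 higher and summed levels of 812023 and 739922 normalized reads in wild-type against 420006 and 451385. Over all genes tested limma called 5.28% lower and 2.97% higher. Epithelium markers had 2 of 14 higher, with sums of 31115 and 23424 against 41674 and 38345. Arch mesenchyme markers, all 16 of which were tested, had 4 higher and 2 lower. Neural markers had 1 of 11 higher, and endothelium with 12 tested, myeloid with 7 and cranial mesoderm with 8 had 0 in either direction in limma and in edgeR. At an unadjusted limma p under 0.05, 4 endothelium markers were higher, 0 myeloid markers differed, and 2 cranial mesoderm markers were higher and 3 lower. At that level 13.4% of all genes tested were higher and 15.3% lower. DESeq2 called 2 endothelium markers higher and the same numbers of cranial mesoderm markers, against 7.67% of all genes tested higher and 9.45% lower. Summed levels were 5353 and 5506 against 6824 and 6455 for endothelium, 182 and 150 against 298 and 182 for myeloid cells, 2589 and 1900 against 3307 and 2699 for neural tissue, 4471 and 4860 against 5182 and 4875 for cranial mesoderm, and 28928 and 38946 against 44558 and 33192 for arch mesenchyme. Of the 11 neural markers 7 had a negative estimate and 4 a positive one, with a median of -0.28. Isl1, the neural marker called higher, had 827 and 563 normalized reads in wild-type against 1786 and 1667. The part of these tissues in the histone values was not tested.

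Histone transcripts are short, with a median length of 555.5 bases among those tested. After a spline correction for transcript length 0 histone genes were called lower by limma, against 0.998% of all genes tested, with a median log2 fold change of -0.75 and 23 lower at an unadjusted p under 0.05, a level at which 12.1% of all genes tested were lower. With GC content corrected as well 2 were called lower, Hist1h1c and Hist1h1d, against 4.57%, with a median of -0.54. The calls thus depended on the correction, and the medians remained negative under both.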

How the data were processed

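The authors deposited a normalized signal for each gene. Per the file headers it derives from featureCounts, and multiplication by a size factor of each library gave back whole reads for 100% of values, within 0.01. Per the labels' protocols RNA was poly(A)-selected and copied from random hexamers. Trimming with fastp 0.21.0 and the build mm10 are named in the submitters' processing notes. Which aligner was used is not given in the sources used here, nor is the strand setting or the treatment of reads matching several copies.

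Genes with a mean of at least 10 were tested on log2(value + 1) with limma 3.58.1 (R 4.3.3), a trend in the prior variance, two-sided, with Benjamini-Hochberg adjustment over 16746 genes and a threshold of 0.05. The fold change on this scale understates that of low genes. An exact permutation test of 2 against 2 cannot give a p below 0.333. The fit had 2 residual and 5.257 prior degrees of freedom. The members and all gene lists were chosen with earlier results of these data known. Values in every library are given for the 3 highest genes of each class, the histone genes called, the extremes of the log2 fold change, and those next to the minimum. Genes of the other lists were named among those called with the smallest p, some of them by fold change only. Hist1h1a, Hist1h1t, Hist1h2af, Hist1h2ag, Hist1h2aj, Hist1h2ak, Hist1h2al, Hist1h4f, Hist1h4j, Hist3h2a, Slbp, Rpph1 and Rn7sk were added after values were seen. For 1 listed gene the values are not reported here.

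Alternatives were pseudocounts of 0.5 and 5, no minimum or a minimum mean of 50, TMM or quantile scaling, limma without trend or robust, a replicate block, each library left out, edgeR 4.0.16 and DESeq2 1.42.0 on recovered reads, and spline corrections (4 degrees of freedom) for transcript length, known for 96.9% of genes tested, and GC content. A crossed block was added after seeing the data. The steps were tested on simulated data.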

Additional observations from a re-analysis of the deposited data

How the results depend on the processing

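The counts of calls changed with several settings. Of all genes, 498 higher and 884 lower became 0 and 0 without the trend, 107 and 162 with the length correction, 165 and 543 with the replicate block and 1284 and 1582 with DESeq2, and robust limma gave 809 higher. Without 1 library they ranged from 0 to 2675 higher and from 0 to 2719 lower. Histone genes called lower, 6 in the main test, were 0 without the trend, 3 with edgeR, 12 with DESeq2, 0 with the length correction, 2 with length and GC, and 0 to 25 without 1 library. Histone genes called higher ranged from 0 to 5 without 1 library. The replicate block left 6 histone genes lower, 5 of them the same genes, with Hist1h2bm lost at an adjusted p of 0.0507. Same-numbered libraries deviated in opposite directions (r = -0.27 over 12411 genes), and a crossed block, an alternative chosen once the data had been seen, called 1763 of all genes higher, 1952 lower and 16 histone genes lower.

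Medians without 1 library ranged from -0.79 to -0.50 for all histone genes, from -1.14 to -0.52 outside H2A, from -1.18 to -0.66 for H1, from -0.42 to 0.14 for H2A, from -0.74 to -0.36 for H2B, from -1.29 to -0.62 for H3, from -1.30 to -0.71 for H4, from -0.53 to -0.14 for Hist2 and from -0.18 to 0.45 for Hist3. The H2A median was 0.18 with the length and GC correction, and that of Hist4 -0.51. The Hist2 median was -0.48 at a pseudocount of 5, -0.44 at a mean of at least 50, -0.47 with quantile scaling, -0.51 with DESeq2 and -0.69 with the length correction.

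Of the other lists, S phase genes called higher were 0 without the trend, 1 with the replicate block, 17 crossed, 13 with DESeq2, 1 with the length correction and 0 to 21 without 1 library. Called lower, they were 2 crossed, 1 with DESeq2 and 0 to 1 without 1 library. Mitosis genes called higher were 2 with TMM, the replicate block or edgeR, 0 without the trend, 9 crossed, 7 with DESeq2, 1 with either correction and 0 to 8 without 1 library. Those lower were 2 with quantile scaling or crossed, 0 without the trend, with the replicate block or with the length correction, and 0 to 1 without 1 library. Chaperones called higher were 0 without the trend or with the length correction, 4 with robust limma, 1 with the replicate block, 5 crossed or with DESeq2 and 0 to 6 without 1 library. Those lower were 0 without the trend, 6 crossed or with DESeq2, 1 with the length correction and 0 to 5 without 1 library. Replacement histones called higher were 1 with quantile scaling and 0 to 1 without 1 library. Those lower were 0 without the trend, 2 crossed or with length and GC, and 0 to 4 without 1 library. Processing genes called higher were 4 crossed, 1 with DESeq2, 3 with length and GC and 0 to 5 without 1 library, and those lower 1 crossed and 0 to 3 without 1 library. RNAs without a long poly(A) tail called lower were 0 without the trend and 0 to 5 without 1 library.

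Several genes that did not pass changed sign. Without 1 library the estimates ranged from -0.30 to 1.99 for Hist1h2ao, from -0.20 to 0.38 for Hist1h2ap, from -0.36 to 0.11 for Hist1h2bc, from -0.45 to 0.24 for Hist1h3d, from -0.70 to 0.65 for Hist1h4i, from -1.89 to 0.21 for Hist2h3c2, from -0.58 to 0.57 for Hist3h2ba and from -0.39 to 0.028 for Hist4h4. With quantile scaling, edgeR and DESeq2 Hist1h4i had 0.041, 0.047 and 0.057 and Hist3h2ba 0.043, 0.081 and 0.093. Quantile scaling gave Hist1h2ap -0.016, and the length and GC correction gave Hist2h2be -0.024. The Hist3 median was -0.018 with the length correction and -0.042 with length and GC. The cause of these changes was not tested. Of the genes given by library, depth limited Hist1h4f, Hist1h4j, Hist1h4m, Hist2h3c2, Hist1h1t, Hist1h2br and Hist3h2bb-ps, which had under 20 reads in a library.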
